A study of Homo sapiens with 4 samples.

Results

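The CHD genes encode ATP-driven chromatin remodelers that carry a pair of chromodomains, and the regions of N6-methyladenosine (m6A, a methylated adenosine of RNA) in their transcripts were examined in human embryonic stem cells. The 8 genes were CHD1, CHD2, CHD3, CHD4, CHD6, CHD7, CHD8 and CHD9. A region was given to a gene when the transcript named in its annotation belonged to that gene, when that gene had the nearest start site, or when the interval overlapped the gene body. By this rule 18 of 9900 regions (0.182%) belonged to 7 of the 8 genes, and CHD8 had none. The genes were chosen with earlier results of these data known, so their having regions is not a finding. They are not the whole family: CHD5, a paralog of CHD3 and CHD4, had no region and is counted below with the other remodelers.

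RNA fragments bound by an m6A antibody were sequenced from H1 cells, an established human embryonic stem cell line, labelled wild type. The labels gave 2 m6A pull-down and 2 input libraries of total RNA, without saying whether the replicates were separate cultures, and the antibody appears in the label of all 4. The deposited data were 1 set of regions on hg38, with a start, an end and an annotation of the centre of each region but no height and no value per library. Depth and RNA levels were therefore unknown, no replicate error could be set beside any difference, no marker of the cell type could be checked, and the absence of a region does not show that a transcript was unmethylated. No statistical test was run on these positions. The regions carry no strand, so overlapping transcripts of opposite direction could not be told apart.

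CHD proteins slide, space or exchange nucleosomes, and they fall into subfamilies. CHD1 and CHD2 are DNA-binding remodelers of transcribed genes, and mouse Chd1 maintains the open chromatin of embryonic stem cells. CHD3 and CHD4 are the ATPases of the NuRD deacetylase complex. CHD6, CHD7, CHD8 and CHD9 are large proteins with BRK domains, among them CHD7, mutated in CHARGE syndrome, and CHD8, a gene linked to autism. In mRNA, m6A is placed by the METTL3 complex, is found most often in long internal exons and near stop codons, and marks transcripts for decay or for binding by reader proteins.

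The RefSeq windows around the 2 start sites at the CHD1 region are shown because that region lay over one of them and next to the other. Each runs from 250 bases before to 50 bases after the start site (GRCh38.p14, 5′ to 3′ on the strand of its own gene), with every GGAC in capitals; GGACT is the best known form of the m6A consensus, and every GGACT contains a GGAC. The window of CHD1-DT, a divergent long non-coding RNA, is chr5:98928312-98928611 on the plus strand, and that of CHD1 is chr5:98928958-98929257 on the minus strand.
CHD1-DT: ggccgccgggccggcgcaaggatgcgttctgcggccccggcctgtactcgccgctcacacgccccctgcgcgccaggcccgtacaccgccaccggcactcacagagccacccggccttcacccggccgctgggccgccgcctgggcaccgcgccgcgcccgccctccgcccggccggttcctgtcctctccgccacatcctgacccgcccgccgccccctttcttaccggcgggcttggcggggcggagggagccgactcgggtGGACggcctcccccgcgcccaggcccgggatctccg
CHD1: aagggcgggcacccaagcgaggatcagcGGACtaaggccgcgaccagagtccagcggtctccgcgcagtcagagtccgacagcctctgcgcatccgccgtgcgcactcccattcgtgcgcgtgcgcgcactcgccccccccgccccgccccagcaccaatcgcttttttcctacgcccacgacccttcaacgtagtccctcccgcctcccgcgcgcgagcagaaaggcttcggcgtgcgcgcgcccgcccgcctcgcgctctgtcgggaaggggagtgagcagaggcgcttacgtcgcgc
All 300 bases of the CHD1-DT window lay inside the m6A region, and none of the CHD1 window did. The CHD1-DT window held no GGACT on either strand and 1 GGAC on each strand. The CHD1 window held 1 GGACT on the strand shown and 3 on the other. The match on the strand shown lay before the CHD1 start site, and matches on the other strand are not in capitals. Among 35116 such windows, 25.3% held a GGACT on the strand of the gene and 44.2% on either strand, and for GGAC the shares were 66.3% and 87.4%. The G and C content was 79.0% in the CHD1-DT window and 70.7% in the CHD1 window, with a median of 58.7% over all windows. A match is a run of letters in DNA and not a measured site.

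CHD1 and CHD2 held 4 regions, none with its centre in an exon. The CHD1 region was 1088 bp wide, at chr5:98927840-98928927. It began 80 bp downstream of the CHD1 start site at 98929007 and contained the CHD1-DT start site at 98928562, and its centre was annotated as the promoter of CHD1-DT (named LINC02062 in the deposited table). The region thus covered the start of CHD1-DT and lay just inside CHD1, and these genes run in opposite directions. CHD7 also held a region next to its start, at chr8:60678789-60679948, which was 1160 bp wide and began 49 bp downstream of the CHD7 5′ end. Its centre lay in intron 1 of 37 and in a CpG island, a class that took 1.14% of all region centres. Of 15843 protein-coding genes with a strand in the start-site table, 409 (2.58%) had a region that began 0 to 100 bp after the 5′ end, or 8.25% of the 4960 such genes with any region over the gene body.

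CHD2, mutated in a developmental epileptic encephalopathy, held 3 wide intronic regions, all in the 3′ part of the gene. They lay in intron 24 of 38 (chr15:92980879-92985021, 4143 bp), intron 33 of 38 (chr15:93000516-93008200, 7685 bp) and intron 38 of 38 (chr15:93020080-93025153, 5074 bp). Their centres stood at 64.7%, 81.5% and 95.8% of the gene body, counted from the 5′ end. The gaps between them were 15494 and 11879 bp, and the last region ended 2843 bp before the 3′ end of the gene. At the centres, the one in intron 24 lay in an MLT1A element, an LTR retrotransposon fragment, and the one in intron 38 in L1MEc, an ancient L1 repeat. Together the regions covered 16902 bp, or 13.2% of the gene body of 127673 bp.

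CHD3 and CHD4, the NuRD ATPases, had 1 region each, and neither was exonic. The region given to CHD3 (chr17:7881792-7882394, 603 bp) did not touch the gene. It lay 2401 bp before the CHD3 5′ end, in intron 2 of 4 of NAA38, a subunit of an N-terminal acetyltransferase, and was assigned through the nearest start site alone. At 603 bp it was the narrowest of the 18 regions, and 99.8% of all regions were at least as wide. The CHD4 region (chr12:6578135-6580870, 2736 bp) lay in intron 33 of 39 with an AluSz element at its centre, 74.7% of the way along the gene. It also lay within CHD4-AS1, an antisense RNA (chr12:6568371-6584751), so the transcript of origin cannot be told apart. It ended 602 bp from SCARNA11, a small Cajal body RNA encoded within CHD4.

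CHD6, CHD7 and CHD9 held 12 of the 18 regions (66.7%) and all 5 with a centre in a coding exon. These 3 are also the longest of the 8 genes. Per 100 kb of gene body they held 1.39, 2.64 and 1.47 regions, within the range from CHD1 (1.33) to CHD4 (2.68). CHD8, the other member of the CHD6 to CHD9 subfamily and the shortest of its 4 genes at 70925 bp, had no region over its gene body or by any criterion. The nearest one lay 31402 bp away, in an intron of SUPT16H, a subunit of the histone chaperone FACT. CHD9 held 2 coding-exon regions, CHD6 2 and CHD7 1. The share of all 20056 protein-coding genes with an exonic region was 12.8%, or 10.4% with regions up to 2 kb, and 1.22% had at least 2. The 3 of 8 CHD genes with one (37.5%) are the longest of the family, at 272507 bp for CHD9, 216295 bp for CHD6 and 189289 bp for CHD7, and with CHD2 they fall among the 4011 longest genes, of 83436 bp or more, where 18.7% had an exonic region.

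**Figure D1:**
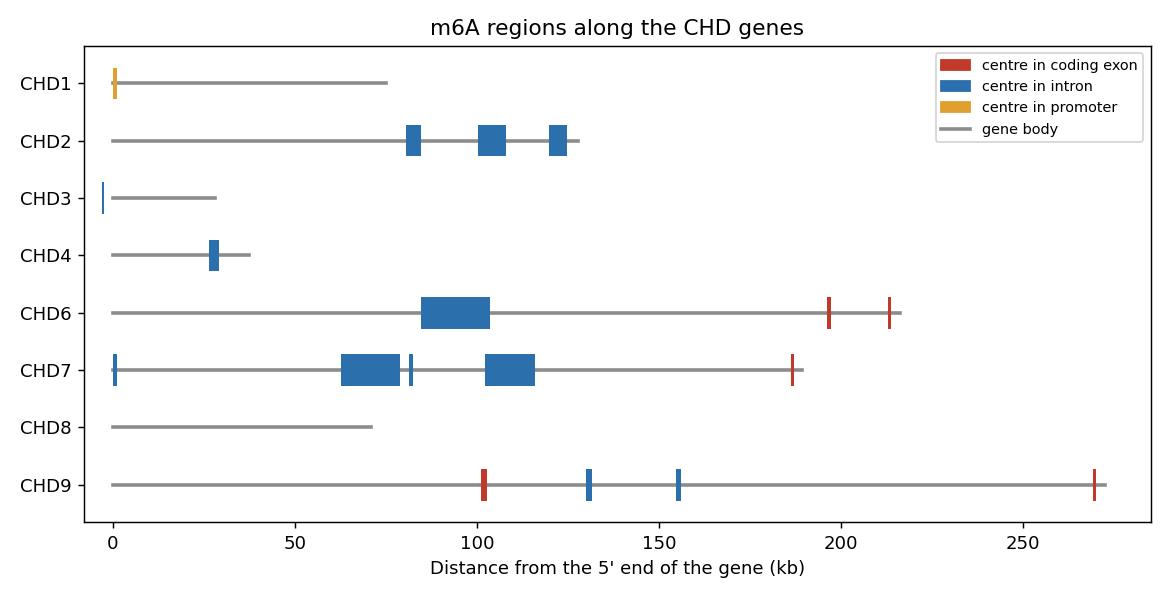
Positions of the 18 m6A regions along the 8 CHD genes. The horizontal axis is the distance from the 5′ end of the gene in kb, grey lines are gene bodies, and bars are regions drawn to scale and coloured by what lies at their centre. The wide bars are in introns of CHD2, CHD6 and CHD7, the coding-exon bars near the right end are in CHD6, CHD7 and CHD9, the CHD3 bar lies before the gene, and CHD8 has no bar.

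CHD6 carried coding-exon regions in exon 31 of 37 (chr20:41421047-41422162, 1116 bp) and in exon 37 of 37 (chr20:41404537-41405555, 1019 bp). CHD9 carried them in exon 2 of 39 (chr16:53156058-53157641, 1584 bp) and in exon 39 of 39 (chr16:53324114-53324954, 841 bp). By the deposited distance, the centre of the CHD9 region in exon 2 lay 923 bp downstream of a CHD9 start site. The CHD7 region (chr8:60865083-60865926, 844 bp) was annotated to exon 5 of 5 of NM_001316690, a transcript with far fewer exons than NM_017780, which has 37 introns, so its place in the longer transcript is not given here. In these 3 genes, then, 3 of 5 exonic centres (60.0%) were in the last exon of the named transcript, beside 67.9% of 2819 exonic centres over all genes with at least 2 exons. Counting coding exons alone, the share over all genes was 57.2%, so the CHD share lay near the background.

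The last-exon regions of CHD6, CHD7 and CHD9 ended at similar distances from the 3′ end of their genes. The distance was 2454 bp in CHD6, 2102 bp in CHD7 and 2543 bp in CHD9, and the centres stood at 98.6%, 98.7% and 98.9% of the gene body. Over 1606 last-exon regions of protein-coding genes with a known strand, the median distance was 1909 bp, with quartiles of 569 and 4260 bp. The interval from 2102 to 2543 bp, set by the 3 CHD regions, held 105 of them (6.54%). The 3 distances lay between the quartiles of the general distribution and close to each other. Because the interval was drawn around them, its share does not measure how unusual that closeness is, which was not tested. Distances to stop codons were not analysed here.

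**Figure D2:**
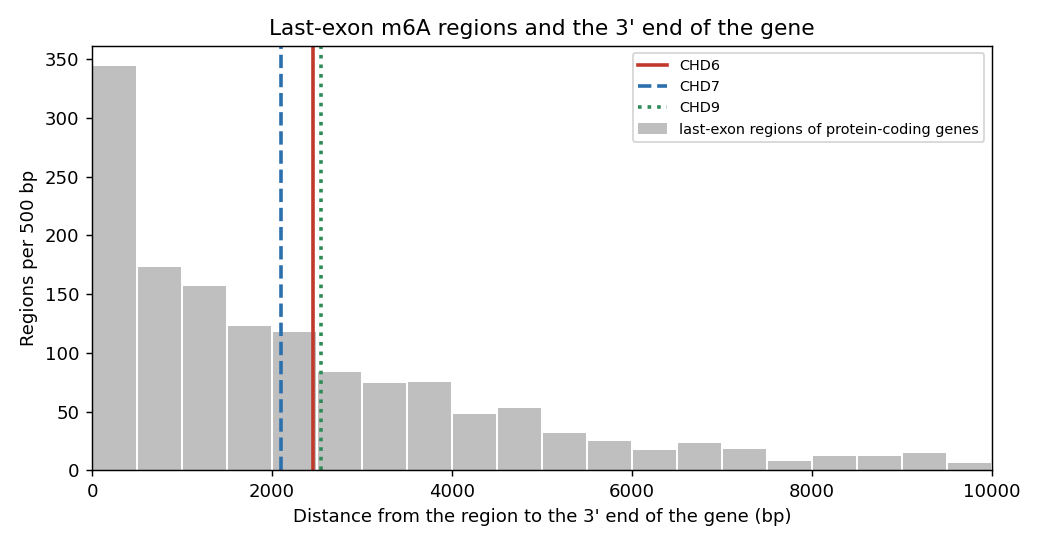
Distance in bp from last-exon m6A regions to the 3′ end of the gene. Grey bars count regions of protein-coding genes per 500 bp, without the 158 regions at 10000 bp or more and the 31 that reach past the end; vertical lines mark CHD6 (2454 bp), CHD7 (2102 bp) and CHD9 (2543 bp), which stand close together beyond the tallest bars.

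Intronic regions of CHD6, CHD7 and CHD9 lay in introns 1 to 3, while those of CHD2 and CHD4 lay in introns 24 to 38. CHD6 held 1 of 18723 bp in intron 3 of 36 (chr20:41514900-41533622), the widest of the family; 7.09% of all intronic regions and 4.63% of all regions were at least as wide. CHD7 held 16291 bp in intron 2 of 37 (chr8:60741388-60757678) and 13507 bp in intron 3 of 37 (chr8:60781035-60794541), widths that 8.60% and 11.1% of all intronic regions reached, or 5.46% and 6.83% of all regions. Between them, 2395 bp after the wider one, lay a region of 1044 bp (chr8:60760074-60761117) with its centre in L1PA3, a young primate L1 element found at 1.90% of all centres. The CHD9 regions were narrow, at 1873 bp (chr16:53184807-53186679, at a THE1C-int LTR element) and 1599 bp (chr16:53209564-53211162). The second of these began 1113 bp downstream of a CHD9 start site inside the gene, at 53208451. Intron numbers are those of the transcript named for each region. Those of CHD9 come from NM_001352127 and NM_001352157, while its exon numbers come from NM_025134, and the centres of its intronic regions stood at 48.0% and 57.0% of the gene body. Of the 11 regions in introns of CHD genes, 7 (63.6%) were in introns 1 to 3, beside 30.5% of 1040 intronic regions in transcripts with 20 or more introns. These 7 come from 3 genes, and regions of 1 gene are not independent of each other. A low intron number is not a place near the 5′ end. The CHD6 centre in intron 3 stood at 43.5% of the gene body. The CHD7 centres in introns 1 to 3 stood at 0.332%, 37.4%, 43.2% and 57.6%.

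Coding-exon regions were narrow and intronic ones spanned a wide range. The 5 coding-exon regions ran from 841 to 1584 bp, with a median of 1019 bp, against a median of 1350 bp over all coding-exon regions. The 11 regions in introns of CHD genes ran from 1044 to 18723 bp with a median of 4143 bp, against 2102 bp over all intronic regions, and 2 of them were no wider than the widest coding-exon region. Over 5 kb were 5 of the 11 (45.5%), beside 26.6% of all intronic regions and 0.680% of all coding-exon regions. Over the 18 regions the median was 1591.5 bp, close to the 1527 bp of all 9900. The 5 regions over 5 kb made up 75.7% of the summed width of 80930 bp, near the 74.7% over all regions. A repeat lay at the centre of 5 of the 11 intronic regions, beside 54.7% of all intronic regions.

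**Figure D3:**
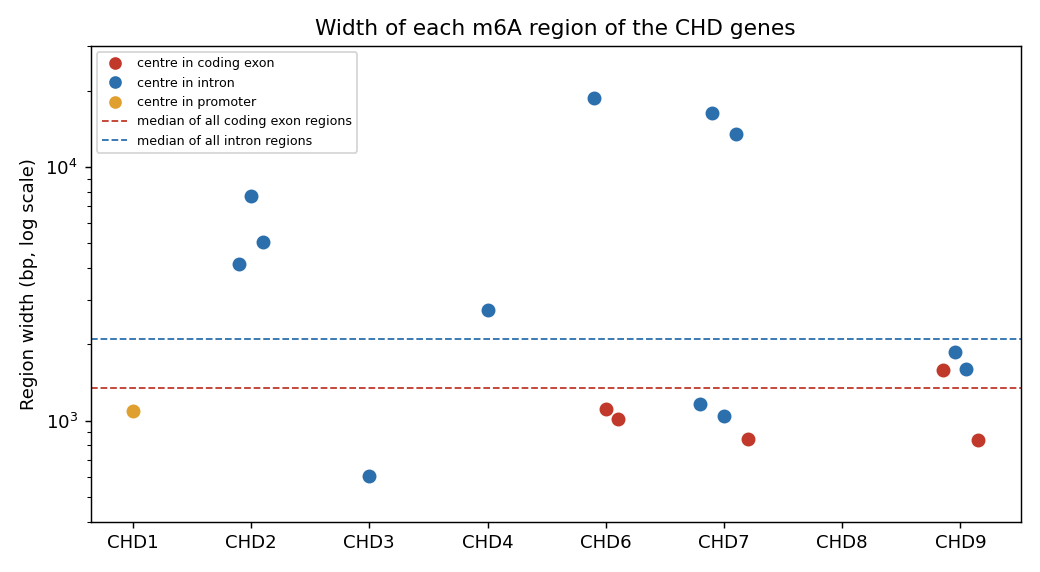
Width in bp (log scale) of each m6A region by CHD gene, ordered from 5′ to 3′ within a gene and coloured by the feature at its centre. Dashed lines are the medians of all coding-exon (1350 bp) and all intronic (2102 bp) regions; the 3 highest points, over 10 kb, are intronic regions of CHD6 and CHD7.

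By number of regions over the gene body, CHD7 came first in the family with 5, followed by CHD9 with 4, CHD2 and CHD6 with 3, CHD1 and CHD4 with 1 and CHD3 and CHD8 with 0. At least 1 region lay over the body of 6 of the 8 genes (75.0%), against 30.2% of all protein-coding genes and 50.1% of the 4011 longest. An intronic region was found in 5 CHD genes, against 15.8% of all genes, and 4 CHD genes had the nearest start site of a region, against 25.7%. At least 3 regions over the gene body were found in 4 CHD genes, against 3.16% of all genes, and 5 or more in 0.693% of all genes. Those 4 are CHD2, CHD6, CHD7 and CHD9, the CHD genes among the 4011 longest. For these counts and the intronic one, the share among the longest genes was not computed. Per 100 kb of gene body the order differed, with 2.68 regions in CHD4, 2.64 in CHD7, 2.35 in CHD2, 1.47 in CHD9, 1.39 in CHD6 and 1.33 in CHD1. Regions covered 32846 bp of CHD7 (17.4% of the gene body), 20858 bp of CHD6 (9.64%) and 16902 bp of CHD2 (13.2%). They covered 5897 bp of CHD9 (2.16%), 2736 bp of CHD4 (7.34%) and 1088 bp of CHD1 (1.45%). CHD9 therefore had more regions than CHD6 and less covered sequence. Of the 6057 protein-coding genes with a region over the gene body, 1700 had at least as high a share covered as CHD7. The counts were 2053 for CHD2, 2542 for CHD6, 2965 for CHD4, 4636 for CHD9 and 5037 for CHD1. Regions per 100 kb were not computed over all genes. With 1 set of regions these orders have no replicate spread.

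The genes most like CHD7 had the same 1 exonic region and 5 regions over the gene body and were nearest in gene body length, out of 16 such genes. TAF3, a TFIID subunit, was closest, with a gene body of 198127 bp of which 23.3% was covered. ALMS1, a centrosomal protein gene mutated in Alström syndrome, had 13.1% of 224162 bp covered, and PCDHA11, a clustered protocadherin, 13.2% of 143391 bp. Regions over a gene body were counted by overlap, so those of other genes lying within it are included.

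Partner genes of the CHD proteins and other remodelers held exonic regions in shares between those of the CHD genes and of all genes. With regions up to 2 kb, the shares were 37.5% for the CHD genes, 23.5% for the NuRD and ChAHP partners and 13.0% for the other ATPases. They were 11.1% for the ISWI, INO80 and SRCAP partners and 10.4% for all genes. At this cut the other ATPases and the ISWI, INO80 and SRCAP partners lay near the background. With exonic regions of any width the shares were 26.1% (6 of 23) and 16.7% (6 of 36), against 12.8% of all genes. The ISWI, INO80 and SRCAP partners thus stayed near the background with exonic regions of any width. With any region over the gene body the shares of these 2 lists were 69.6% and 61.1%, against 30.2%. Among 17 genes of the NuRD and ChAHP complexes, in which CHD4 works, 4 had an exonic region (23.5%) and 7 a region over the gene body (41.2%). ADNP, the zinc finger homeobox partner of CHD4 in ChAHP, held 971 bp in exon 4 of 4 (chr20:50891052-50892022), and its paralog ADNP2 held 1356 bp in exon 4 of 4. GATAD2A, a NuRD scaffold subunit, held 823 bp in the 3′ UTR, and the histone chaperone RBBP7 1046 bp in the 5′ UTR. CBX1, CBX3 and CBX5, the HP1 proteins, had none in exons.

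Of 23 other genes of the remodeler ATPase superfamily, 6 held an exonic region (26.1%) and 16 any region (69.6%). EP400, the ATPase of the TIP60 complex, had regions of 4878 bp in exon 23 of 53 and of 2208 bp in exon 53 of 53. SRCAP, which deposits H2A.Z, had 3229 bp in exon 34 of 34, and ATRX, which deposits H3.3, had 1688 bp in exon 8 of 34. ERCC6, ERCC6L and ERCC6L2 were the others with one. That of ERCC6 was annotated to exon 6 of 6 of NM_001277059, and its place in other ERCC6 transcripts is not given here. BTAF1 had none in exons, nor did the CHD paralogs CHD1L and CHD5. With CHD5 counted among the CHD genes, 3 of 9 (33.3%) had an exonic region and 6 of 9 (66.7%) a region over the gene body. The list of ISWI, INO80 and SRCAP partners also holds subunits of the TIP60 complex, such as TRRAP and KAT5. Of its 36 genes, 6 held an exonic region (16.7%) and 22 any region (61.1%). They were the bromodomain proteins BAZ1B, BAZ2B, BPTF and CECR2, the histone-binding RSF1, and INO80D. CECR2 held 2, in exons 16 and 17 of 19, and the BAZ2B region was 22432 bp wide. ACTL6A, ACTR5 and ACTR6, which are actin-related proteins, had none in exons. Median gene body length was 101348 bp for the CHD genes, 38121 bp for the NuRD and ChAHP partners, 101244 bp for the other ATPases, 30785.5 bp for the ISWI, INO80 and SRCAP partners and 24092.5 bp for all protein-coding genes. The part of gene length and of RNA level in these shares was not tested.

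**Figure D4:**
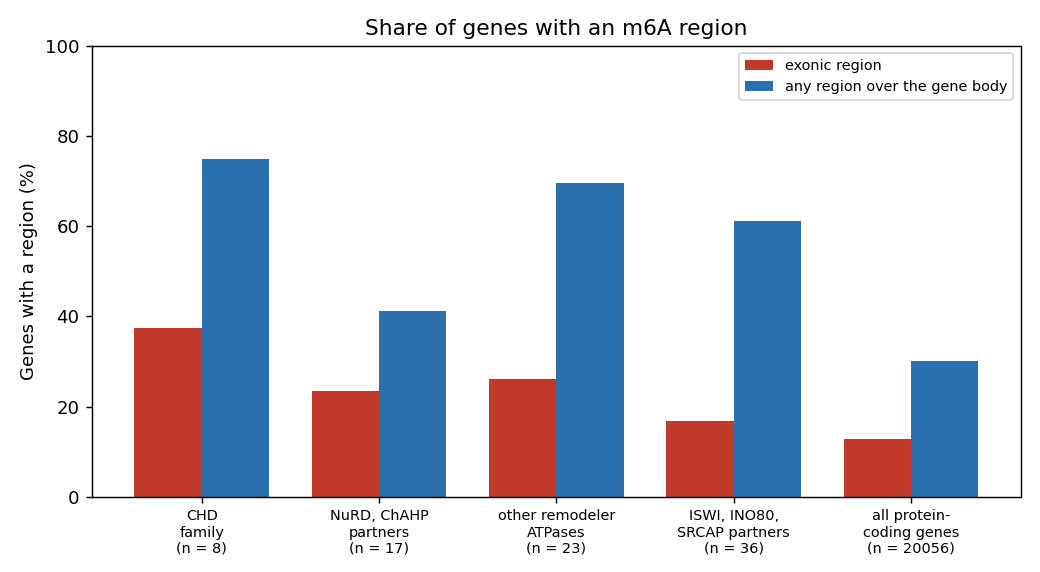
Share of genes (%) with an exonic m6A region (left bars) and with any region over the gene body (right bars) in the 8 CHD genes, 3 lists of related genes and all 20056 protein-coding genes. The CHD bars stand at 37.5% and 75.0%, and the bars of all genes at 12.8% and 30.2%.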

How the data were processed

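m6A-seq regions of wild-type H1 cells were used. The submitters' processing notes name MACS2 2.2.7.1, HOMER, HISAT2 2.2.1, bedtools 2.30.0, Trim Galore 0.6.7 and SAMtools 1.6 on hg38, and their settings are not given in the sources read. Per the file name the regions are intersected MACS2 peaks, and the peak sets that were intersected are not stated. The authors' deposited tables gave the start and end positions and the start-site distances, in base pairs. Their annotation labels gave the feature at each centre, the exon or intron number, the repeat or CpG island and the gene with the nearest start site. No other value of the authors' deposited tables was used. The deposited peak score was 0 in each line.

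With Python 3.11.15, the transcripts of 8585 annotated regions were matched to the RefSeq gene table of GRCh38.p14, which names 8523. A region was exonic when its centre was annotated to a coding exon, a UTR or a non-coding exon. Strand came from the RefSeq start-site table or, for CHD6 and CHD7, from deposited distances that placed a start site within 2 bp of a gene boundary. Gene bodies are the full extents in that table. Only the lookup of overlaps was checked, with simulated regions placed inside known genes. Assignment by transcript or by nearest start site was not tested in this way. The genes named were every CHD gene, every listed partner with an exonic region, up to 3 without in alphabetical order, and the 3 genes most like CHD7; other neighbouring genes were chosen after their values were seen. The members and lists were chosen with earlier results of these data known. Figures used matplotlib 3.10.9.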

Additional observations from a re-analysis of the deposited data

How the results depend on the processing

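Of 22 alternatives, 13 gave a value within 1.5 times the reported one. The 18 CHD regions were 16 by the annotated transcript, 17 by overlap with the gene body, 9 by the nearest start site and 11 with regions up to 2 kb only. The 3 CHD genes with an exonic region were 6 with any overlap of the gene body, by construction, and 4 by the nearest start site, which takes in CHD3. The median width of 1591.5 bp was 1019 bp in exonic and 3439.5 bp in intronic regions, counting the CHD3 region in NAA38. With any overlap, the lists had 7 NuRD and ChAHP genes (4 by exons), 16 other ATPases (6) and 22 ISWI, INO80 and SRCAP partners (6); with regions up to 2 kb, the other ATPases had 3. No paired analysis was possible because the files hold 1 set of regions and no value per library, so leaving out a replicate was not run either. Overlap with exons of transcript models and GGACT counts over whole regions were not run, since the only sequence used here was that of the start-site windows.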

Other observations

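CHASERR, a long non-coding RNA gene just before CHD2 that restrains Chd2 expression in mouse, held 1 m6A region. It was 3763 bp wide, at chr15:92885527-92889289 in intron 3 of 4, and ended 11034 bp before the CHD2 5′ end. The other regions within 20 kb of a CHD gene were 1 of 1218 bp in exon 4 of 4 of RGMA, a repulsive guidance molecule gene, 16707 bp past the CHD2 3′ end, and 1 of 819 bp in a non-coding exon 10757 bp before CHD9.

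CHD1L, a PARP-activated remodeler without chromodomains, had 2 regions over its gene body. One of 1524 bp lay across its 5′ end and was annotated to the promoter of PRKAB2, a subunit of AMP-activated kinase, and one of 673 bp lay in intron 1 of 22. Another region, 1217 bp between genes at an L1PA3 element, had CHD1L as its nearest start site.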
